A study of Mus musculus with 24 samples.

Results

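The experiment asked what 1 week of the CDK4/6 inhibitor abemaciclib did to gene expression in the sciatic nerve of mice with plexiform neurofibroma, a benign growth of peripheral nerve that contains Schwann cells, fibroblasts and immune cells. The 6 libraries labelled with abemaciclib (CDKi) were set against the 6 labelled with vehicle, 12 of the 24 libraries in the series, and 15385 of 24421 genes had enough counts to be tested. All 4 groups carry the genotype Nf1 flox/flox PostnCre+, which means floxed alleles of Nf1 and a Cre recombinase under control of Postn, a promoter used to delete genes in the Schwann cell lineage. The other libraries are 6 that received both abemaciclib and the ERK1/2 inhibitor LY3214996 (combination) and 6 that received LY3214996 alone (ERKi), also for 1 week. Ages, doses and animal numbers are not stated in the labels. The labels also do not tie each library to its own animal, so a p-value here reflects the spread among these libraries, which may be technical. There is no Cre-negative group, and a floxed exon does not set the count of the whole gene, so Nf1 does not check the deletion. Nf1 had 305 to 375 CPM (counts scaled to library size, with TMM factors; median 337) in CDKi and 290 to 429 CPM (median 357) in vehicle, and the groups overlapped.

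CDK4 and CDK6 are kinases that bind D-type cyclins and phosphorylate the retinoblastoma protein RB1. Phosphorylated RB1 releases E2F transcription factors, which switch on genes for DNA replication, and genes for mitosis follow later in the cycle under the DREAM and FOXM1-MuvB complexes. NF1 loss in Schwann cells raises RAS signalling, which feeds into cyclin D. Abemaciclib inhibits the kinase activity of CDK4 and CDK6.

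The promoters of 4 genes from the gene groups described here carry the motifs by which these programmes are usually recognised, and they are shown so that each group can be seen beside its regulatory letters. They are the 250 bases before the start site that the RefSeq promoter table (GRCm38.p6) gives for each gene, 5′ to 3′ on the gene's strand, with the motif match in capitals. For Mcm5, Mki67 and Plin1 that site lies inside the outer bounds of the annotated gene, so the window reaches past its outermost start. Mcm5, a subunit of the replicative helicase, lies on the plus strand at chr8:75109259-75109508 and has overlapping matches to an E2F motif. Mki67, the proliferation marker Ki-67, lies on the minus strand at chr7:135716380-135716629 and has 2 matches to the cell cycle homology region (CHR). Isg15, an interferon-induced ubiquitin-like protein, lies on the minus strand at chr4:156200819-156201068 and has a run of matches to an interferon-stimulated response element. Plin1, the coat protein of the adipocyte lipid droplet, lies on the minus strand at chr7:79732777-79733026 and has 2 matches to a C/EBP motif.
Mcm5: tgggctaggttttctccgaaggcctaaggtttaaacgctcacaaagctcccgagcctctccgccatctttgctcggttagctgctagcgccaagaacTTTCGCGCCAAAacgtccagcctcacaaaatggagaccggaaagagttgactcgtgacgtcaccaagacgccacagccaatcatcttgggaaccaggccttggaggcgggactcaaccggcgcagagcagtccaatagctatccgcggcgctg
Mki67: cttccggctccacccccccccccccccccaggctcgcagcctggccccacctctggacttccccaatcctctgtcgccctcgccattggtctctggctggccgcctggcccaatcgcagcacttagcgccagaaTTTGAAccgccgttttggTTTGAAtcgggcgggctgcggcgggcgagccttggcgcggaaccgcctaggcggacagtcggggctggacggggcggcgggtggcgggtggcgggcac
Isg15: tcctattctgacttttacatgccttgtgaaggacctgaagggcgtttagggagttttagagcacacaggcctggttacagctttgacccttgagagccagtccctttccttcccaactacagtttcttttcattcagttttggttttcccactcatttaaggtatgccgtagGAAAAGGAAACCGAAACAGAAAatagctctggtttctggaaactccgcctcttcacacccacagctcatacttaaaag
Plin1: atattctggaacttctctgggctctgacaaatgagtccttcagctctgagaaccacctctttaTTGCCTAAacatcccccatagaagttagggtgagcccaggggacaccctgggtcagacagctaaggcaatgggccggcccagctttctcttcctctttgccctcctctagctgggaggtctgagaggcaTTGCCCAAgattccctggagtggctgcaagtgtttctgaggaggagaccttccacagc
The motifs were searched on both strands, as TTTGGCGC, TTTCCCGC, TTTCGCGC or TTTGCCGC for E2F, TTTGAA or TTCGAA for CHR, TTTC, any 2 bases and TTTC again for the interferon element and TTGCNNAA for C/EBP. Counts are of genes with a promoter in the promoter table, and a gene counted if any of its promoters matched. The E2F letters were found for 8 of 32 genes of the E2F and DNA replication list, against 2.16% of all 27025 genes and 3.63% of 11475 tested genes. The CHR letters were found for 11 of 26 genes of the mitosis list, against 19.6% of all genes and 14.7% of tested genes. The interferon element was found for 9 of 19 genes of the type I interferon list, against 3.46% of all genes and 3.15% of tested genes. The C/EBP letters were found for 4 of 12 genes of the adipocyte list, against 10.8% and 8.94%. These matches describe letters in a window and not binding sites.

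Library depth ran from 15118837 to 19757307 counts in CDKi and from 5391543 to 42321550 counts in vehicle. Schwann cell transcripts were high in all 12 libraries, with Sox10, the transcription factor of the lineage, at 338 to 456 CPM in CDKi and 273 to 515 CPM in vehicle. Several libraries stood apart in transcripts of other tissues. CDKi 1 and CDKi 3 held 6882 and 9741 CPM summed over 20 liver genes, with Alb (albumin) at 3155 and 4534 CPM, against 28.4 to 123 CPM in the other CDKi libraries and 4.67 to 51.8 CPM in vehicle. CDKi 5 held 3689 CPM over 18 skeletal muscle genes, against 58.3 to 200 CPM in the other CDKi libraries and 46.0 to 124 CPM in vehicle. Neuronal transcripts summed over 15 genes to between 66.2 and 222 CPM in CDKi 3, CDKi 5, vehicle 1 and vehicle 5, and to between 1861 and 3998 CPM in the other 8 libraries. CDKi 2 held both Xist (767 CPM) and Y-linked transcripts (219 CPM). CDKi 3 also held both (3037 and 16.6 CPM), as did ERKi 3 (882 and 16.2 CPM). The other Xist-positive CDKi and vehicle libraries, CDKi 6, vehicle 3 and vehicle 6, had 0 to 0.0519 CPM of Y-linked transcripts. In the principal components of the 12 libraries, the group accounted for 0.57% of the first component, which held 53.7% of the variance, and for 21.3% of the second, which held 11.2%. The results are therefore also given without the liver and muscle libraries, which are CDKi 1, CDKi 3, CDKi 5 and, in the shared fit, ERKi 3. Only CDKi 2, CDKi 4 and CDKi 6 then remain against 6 vehicle libraries, so p-values and counts of calls from that fit rest on a smaller group. That fit drops CDKi 3 and CDKi 5 but keeps vehicle 1 and vehicle 5, so it is unbalanced in neuronal transcripts. Its neuron list median log2 fold change was 0.61, with 15 of 15 members higher. With all libraries the neuron median was 0.03, with 8 of 15 higher.

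**Figure D1:**
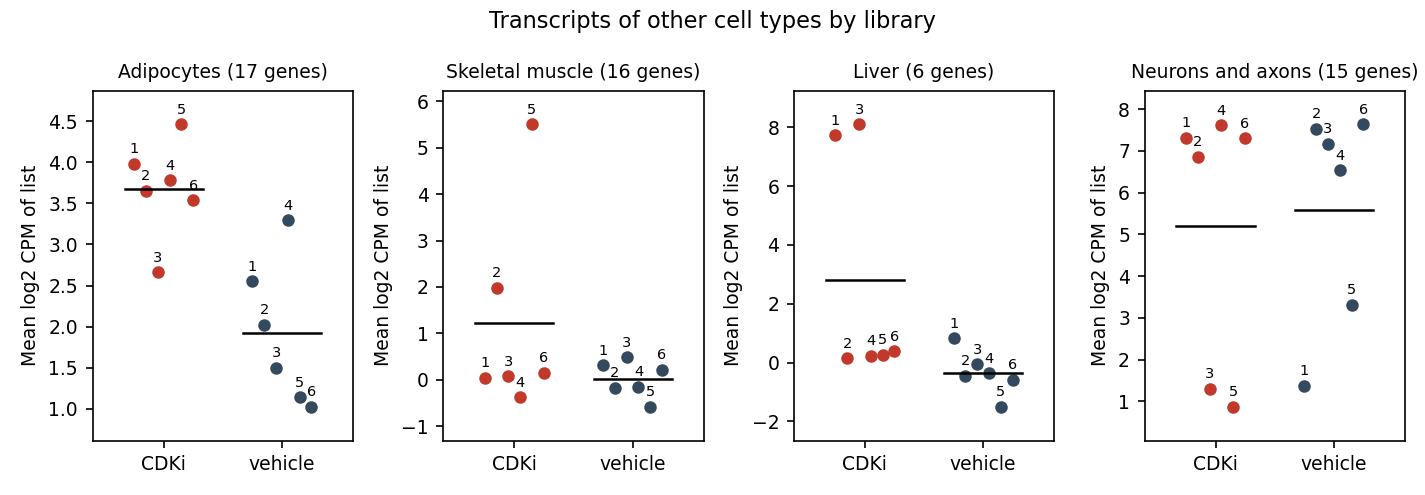
Mean log2 CPM of the tested members of 4 cell type lists in each of the 6 CDKi and 6 vehicle libraries, with the group mean as a bar and the library number above each point. The liver list stands high in CDKi 1 and 3, the muscle list in CDKi 5, and the neuron list is low in CDKi 3 and 5 and vehicle 1 and 5, while the adipocyte list lies between 2.67 and 4.46 in CDKi and between 1.03 and 3.29 in vehicle.

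Dgat2, Cdo1 and Thrsp led the comparison of CDKi with vehicle, although no gene passed the threshold. With edgeR's quasi-likelihood model 0 of 15385 genes were called at an adjusted p under 0.05 (0% of those tested), and the smallest adjusted p was 0.0736. Unadjusted, 480 genes were under 0.05 (3.12%), 340 higher in CDKi (2.21%) and 140 lower (0.910%). DESeq2 called 58 of 17514 genes (0.331%), 57 higher and 1 lower in CDKi, and limma-voom called 0. In 35 of the 58 genes the mean of CDKi 1 and CDKi 3 was at least 10 times the median of the other 4 CDKi libraries, and in 6 genes CDKi 5 was at least 10 times the median of the other 5. The other 17 were Adipoq, Dgat2, Lpl, Plin1 and Pparg of the adipocyte list, Thrsp of the lipid synthesis list, Hp of the liver list, and Car3, Cdo1, Ces1d, D2Wsu81e, Lrg1, Mgst1, Mrap, Ppp1r3c, Ptgds and Serpina3c. They are named here after their values were seen, and some of them were still highest in the liver and muscle libraries. Mgst1 had 145 and 186 CPM in CDKi 1 and 3, against 13.6 to 25.6 CPM in the other CDKi libraries. Car3 had 308 to 332 CPM in CDKi 1, 3 and 5, against 63.8 to 120 CPM in the other CDKi libraries. Without CDKi 1, 3 and 5 and ERKi 3, DESeq2 called 0 genes and edgeR called 0 (239 at an unadjusted p under 0.05). That fit sets only CDKi 2, 4 and 6 against 6 vehicle libraries and so has less power. What the loss of calls owes to the smaller group was not tested.

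**Figure D2:**
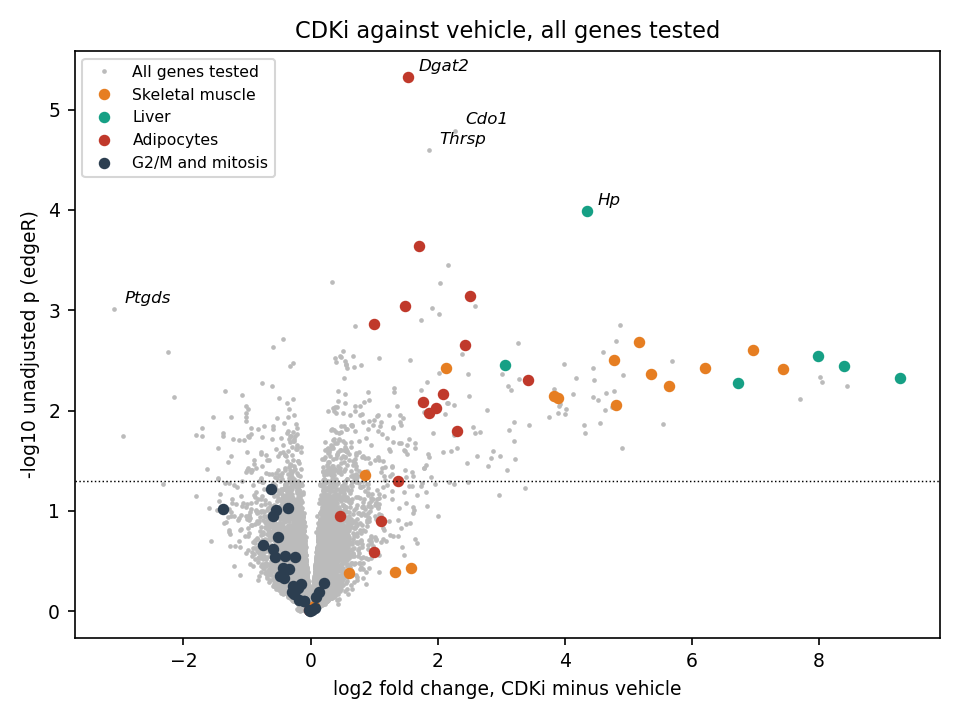
Log2 fold change of CDKi minus vehicle against −log10 of the unadjusted edgeR p for 15385 genes, with members of 4 lists coloured and the p of 0.05 as a dotted line. Dgat2 (adjusted p = 0.0736) has the smallest p, muscle and liver genes reach the largest fold changes, and all mitosis genes lie under the line.

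Dgat2, which encodes the enzyme of the last step of triglyceride synthesis (chromosome 7, 99153663 to 99182713, GRCm38), had the smallest p of all genes. It had 16.5, 18.5, 16.4, 17.2, 21.2 and 17.3 CPM in CDKi 1 to 6, against 11.5, 7.22, 2.86, 5.0, 4.5 and 5.6 CPM in vehicle 1 to 6. The groups did not overlap, and the CDKi libraries lay close together while vehicle 1 was the highest of its group. The log2 fold change was 1.53 ± 0.26 (SE; 95% confidence interval 1.00 to 2.07; edgeR adjusted p = 0.0736). Leaving out vehicle 1, the vehicle library nearest to CDKi for Dgat2, raised the log2 fold change to 1.80, with an edgeR adjusted p of 0.00238. Leaving out ERKi 1 gave an edgeR adjusted p of 0.00964 and leaving out ERKi 3 gave 0.0446. Cdo1 and Thrsp also passed without ERKi 1, and Cdo1 without ERKi 3. Every other removal of a single library gave no call for any gene. Without the liver and muscle libraries the log2 fold change was 1.53 ± 0.32. Within the libraries whose titles are numbers in the 4000s (CDKi 1 to 3, vehicle 1 and 2) it was 0.90 ± 0.38, and within those in the 5000s 2.03 ± 0.21. The labels do not say what these number series stand for.

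Thrsp, which encodes a nuclear protein that promotes lipogenesis, had 11.8 to 24.4 CPM (median 16.6) in CDKi and 2.60 to 7.99 CPM (median 4.69) in vehicle. Every CDKi library was above every vehicle library. The log2 fold change was 1.87 ± 0.35 (SE; edgeR adjusted p = 0.131), and 2.02 without the liver and muscle libraries. Cdo1, which encodes cysteine dioxygenase, an enzyme abundant in fat and liver, had 59.0, 17.9, 72.7, 18.5, 35.2 and 24.3 CPM in CDKi 1 to 6 and 4.55 to 13 CPM (median 7.31) in vehicle. The groups did not overlap, and the liver-positive libraries CDKi 1 and 3 were the highest. The log2 fold change was 2.28 ± 0.42 (SE; edgeR adjusted p = 0.125) and became 1.38 without the liver and muscle libraries, so those libraries moved it by more than 1.5 times.

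In all, 10 genes were higher in every CDKi library than in every vehicle library (0.0650% of genes tested) and 4 were lower (0.0260%). Among 15385 genes some can separate fully through the order of the libraries alone, and these counts were not tested against that. The higher ones were Dgat2, Thrsp, Cdo1, Hp, Gstz1, Tha1, Adcy4, Exosc3, Gdf10 and the predicted gene Gm20754. Hp, the haemoglobin-binding protein haptoglobin made by liver and fat, had 4.89 to 53.7 CPM (median 20.9) in CDKi and 0.179 to 3.51 CPM (median 0.974) in vehicle. CDKi 1, 3 and 5 were its highest libraries, and the log2 fold change of 4.34 ± 0.92 (SE; edgeR adjusted p = 0.393) became 2.56 without them. The lowest Hp value, 0.179 CPM in vehicle 3, lay under a count of 3, which was 0.556 CPM in that library. Gstz1, an enzyme of tyrosine breakdown, had 50.1 to 80.0 CPM in CDKi and 40.3 to 47.9 CPM in vehicle, a log2 fold change of 0.50 ± 0.15 (SE; edgeR adjusted p = 1) that became 0.24 without the liver and muscle libraries. Tha1, a threonine aldolase, had 2.29 to 3.48 CPM in CDKi and 1.43 to 1.86 CPM in vehicle, a log2 fold change of 0.69 ± 0.19 (SE; edgeR adjusted p = 1). Adcy4, an adenylyl cyclase, and Exosc3, a subunit of the RNA exosome, had unadjusted edgeR p of 0.12 and 0.188 although their groups did not overlap.

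**Figure D3:**
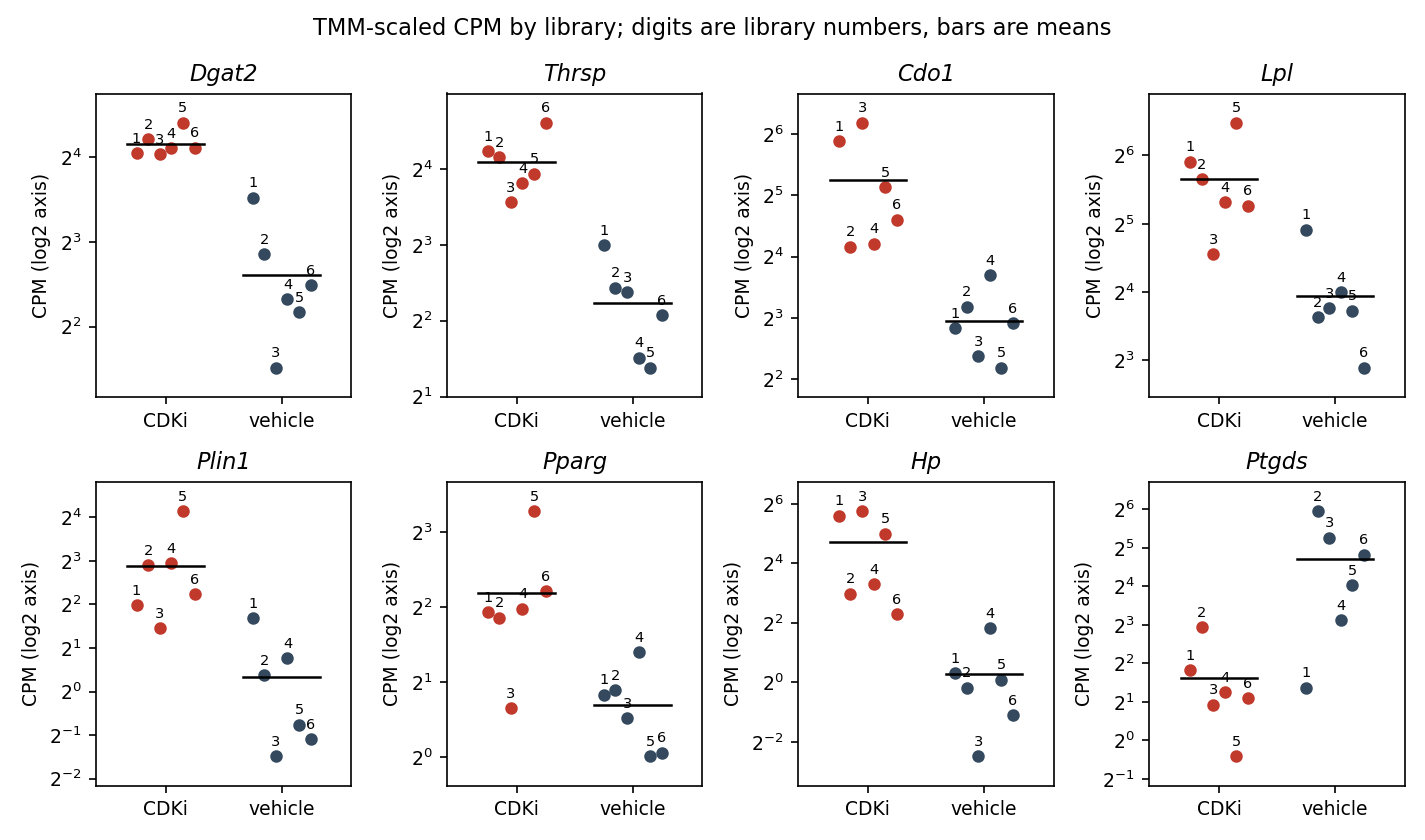
TMM-scaled CPM on a log2 axis of 8 genes in the 6 CDKi and 6 vehicle libraries, with library numbers at the points and the group mean as a bar. Dgat2, Thrsp, Cdo1 and Hp do not overlap between groups, Lpl, Plin1 and Pparg overlap at the edges, and Ptgds is below 8 CPM in CDKi and up to 61.8 CPM in vehicle.

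The adipocyte list as a whole lay on the higher side in CDKi. Of its 17 members, all of which were tested, 16 were higher in CDKi (48.2% of all genes were), 13 of them at an unadjusted p under 0.05, and 0 were called. The median log2 fold change was 1.70, against -0.01 over all genes tested. Lpl, the lipase that releases fatty acids from circulating lipoproteins, had 23.5 to 89.1 CPM (median 45.0) in CDKi and 7.42 to 30.1 CPM (median 13.4) in vehicle. CDKi 3 lay below vehicle 1, and the other CDKi libraries lay above all of vehicle (log2 fold change 1.70 ± 0.39 (SE), edgeR adjusted p = 0.706). Plin1 had 2.73 to 17.6 CPM (median 6.07) in CDKi and 0.357 to 3.20 CPM (median 0.946) in vehicle. CDKi 5 was its highest library, and the log2 fold change of 2.51 ± 0.64 (SE; edgeR adjusted p = 1) was 2.06 to 2.97 when single libraries were left out.

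Regulators and hormones of the adipocyte lay in the same direction as its storage genes. Pparg, the transcription factor that sets the adipocyte programme, had 1.57 to 9.72 CPM (median 3.88) in CDKi and 1.01 to 2.64 CPM (median 1.6) in vehicle. The groups overlapped through CDKi 3 (log2 fold change 1.48 ± 0.39 (SE), edgeR adjusted p = 1). Adipoq (adiponectin) had 5.39 to 45.2 CPM (median 16.7) in CDKi and 0.623 to 9.23 CPM (median 1.94) in vehicle, a log2 fold change of 2.42. Lep (leptin) had 0.308 to 13.7 CPM in CDKi and 0 to 1.43 CPM in vehicle, near the floor of 3 counts in several libraries. Lipe, the hormone-sensitive lipase that breaks stored triglyceride down, had 15.6 to 40.4 CPM in CDKi and 6.79 to 17.8 CPM in vehicle, a log2 fold change of 1.00 ± 0.27. The members without an unadjusted p under 0.05 were Pnpla2, the first lipase of triglyceride breakdown, at 0.46, Fabp4, a fatty acid carrier, at 1.12, Plin4, a lipid droplet protein, at 0.99 with an unadjusted p of 0.255, and Tusc5 at -0.03.

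The summed adipocyte transcripts were 283 to 648 CPM (median 485) in CDKi and 100 to 495 CPM (median 246) in vehicle. The ranges overlapped through vehicle 4, which lay above CDKi 3, 4 and 6. The defining markers Adipoq and Plin1 were above 0 in all 12 libraries, although Plin1 in vehicle 3 (0.357 CPM) lay under the 3-count floor there (0.556 CPM). In bulk nerve, fewer or more cells of a type and less or more RNA per cell cannot be told apart, and the part that the amount of fat in each nerve sample played was not tested. Without the liver and muscle libraries the median of the list was 1.45, with 17 of 17 members higher and 9 at an unadjusted p under 0.05 (1.52% of genes in that fit). It was 1.10 within titles in the 4000s and 2.03 within titles in the 5000s, and 1.5 to 2.14 when single libraries were left out.

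Genes that make fatty acids and triglyceride form a second list, whose transcripts are also abundant in myelinating Schwann cells. Of 17 members 14 were higher in CDKi, 5 of them at an unadjusted p under 0.05, and the median log2 fold change was 0.11. The mean log2 CPM of the list was 6.63 to 6.87 in CDKi and 6.34 to 6.57 in vehicle. The 6 CDKi libraries lay above all 6 vehicle libraries on this mean, which gives each gene equal weight. The summed CPM overlapped, at 6344 to 7944 in CDKi and 5974 to 7830 in vehicle, and the most abundant members differed little. Scd1, the stearoyl-CoA desaturase, had 1297 to 1958 CPM in CDKi and 1175 to 1729 CPM in vehicle. Fasn, the fatty acid synthase, had 416 to 643 CPM in CDKi and 355 to 596 CPM in vehicle, a log2 fold change of 0.33 ± 0.18. Besides Thrsp, the members with a p under 0.05 were Mlxipl (the glucose-responsive factor ChREBP, 0.77), Acacb (acetyl-CoA carboxylase of the mitochondrial surface, 0.63), Acsl1 (long-chain acyl-CoA synthetase, 0.53) and Agpat2 (an acyltransferase of triglyceride synthesis, 0.43). Srebf1, the transcription factor SREBP-1, stood at 0.04. Without the liver and muscle libraries 13 of 17 were higher, 1 of them at a p under 0.05, with a median of 0.08. Cholesterol synthesis, which shares SREBP control, had a median of 0.03 with 0 of 22 members at a p under 0.05, and a median of -0.09 without the liver and muscle libraries.

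Of 10 tested brown fat genes 6 were higher in CDKi, 3 at an unadjusted p under 0.05, with a median log2 fold change of 0.12. The mean log2 CPM of the list was 2.67 to 3.49 in CDKi 1, 2, 4 and 6. It was 1.84 and 1.83 in CDKi 3 and 5, and 1.79 to 2.46 in vehicle. Ucp1, the uncoupling protein of brown fat, had 25.8 CPM in CDKi 2 and a median of 0.416 CPM in CDKi, against 0 to 1.15 CPM in vehicle. Its fitted log2 fold change of 4.45 was 1.59 to 6.26 when single libraries were left out, the lowest being without CDKi 2. Without the liver and muscle libraries, a fit that keeps CDKi 2, the Ucp1 value was 5.50 ± 1.10 (SE). The other thermogenic regulators Ppargc1a and Prdm16 stood at 0.05 and -0.09.

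Genes of the CDK4/6 pathway itself differed little between CDKi and vehicle. Of 23 members of the CDK4/6 axis list 6 were higher and 17 lower, 0 had an unadjusted p under 0.05, and the median log2 fold change was -0.06. Cdk4 had 36.3 to 54.9 CPM (median 52.1) in CDKi and 41.2 to 56.0 CPM (median 53.7) in vehicle, and Cdk6 had 20.4 to 47.7 CPM (median 33.5) in CDKi and 22.5 to 66.1 CPM (median 37.8) in vehicle. Both pairs overlapped. Among the D cyclins, which activate the kinases, Ccnd1 had a log2 fold change of 0.01 (95% confidence interval -0.78 to 0.79), Ccnd2 of -0.11 (-0.92 to 0.69) and Ccnd3 of -0.05 (-0.62 to 0.52). Rb1, the substrate, had 101 to 116 CPM (median 109) in CDKi and 97.7 to 143 CPM (median 125) in vehicle. It had the smallest p of the list, with a log2 fold change of -0.16 (-0.33 to 0.01; edgeR adjusted p = 1). Cdkn1a, the CDK inhibitor p21, stood at -0.12 (-0.59 to 0.34), and Cdkn2c, the CDK4/6 inhibitor p18, at 0.06 (-0.48 to 0.60).

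The E2F and DNA replication genes, the direct transcriptional readout of RB1, were centred on 0. Of 38 members 16 were higher and 22 lower in CDKi, 0 had an unadjusted p under 0.05, and the median was -0.02. Their summed CPM was 268 to 295 in CDKi and 269 to 307 in vehicle. Mcm5, whose promoter is printed above, had 4.16 to 5.52 CPM (median 4.81) in CDKi and 4.64 to 6.93 CPM (median 5.33) in vehicle. The log2 fold change was -0.19 (95% confidence interval -0.61 to 0.23). Rrm2, the ribonucleotide reductase subunit made in S phase, stood at -0.37 (-1.08 to 0.34), E2f1 at -0.45 (-1.13 to 0.23) and Ccne2, cyclin E2, at -0.03 (-0.55 to 0.49). These intervals include 0 and, for Rrm2 and E2f1, also a log2 fold change of -1, and E2f1 stood at -0.06 without the liver and muscle libraries. Mcm10, a replication initiation factor, had 0.356 to 4.23 CPM in CDKi and 0.302 to 1.25 CPM in vehicle. Its log2 fold change of 0.93 was -0.03 without the liver and muscle libraries, 2.59 within titles in the 4000s and -0.68 within those in the 5000s.

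Mitosis genes lay on the lower side in CDKi without passing the test. Of 31 tested members 5 were higher and 26 lower (51.8% of all genes were lower), 0 had an unadjusted p under 0.05, and the median log2 fold change was -0.28. Mki67 had 2.62, 11.5, 19.98, 6.6, 4.13 and 13.7 CPM in CDKi 1 to 6, against 21.6, 14.4, 20.4, 3.24, 19.6 and 7.11 CPM in vehicle 1 to 6. The groups overlapped: CDKi 3 was among the highest libraries and vehicle 4 among the lowest. The log2 fold change was -0.55 (95% confidence interval -1.61 to 0.50; edgeR adjusted p = 1). Top2a, the topoisomerase that untangles chromosomes, had 1.23 to 12.1 CPM (median 3.43) in CDKi and 1.21 to 9.29 CPM (median 6.99) in vehicle. Ttk, a kinase of the spindle checkpoint, had 1.03 to 3.87 CPM (median 2.86) in CDKi and 2.44 to 6.43 CPM (median 4.38) in vehicle. It had the smallest p of the list (log2 fold change -0.62, unadjusted p = 0.0611). Aurkb, the kinase of the chromosomal passenger complex, had the largest difference at -1.38 with a median of 0.119 CPM in CDKi, under the 3-count floor of most libraries.

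The mitosis median moved with single libraries, to -0.59 without CDKi 3 and to -0.14 without vehicle 3. Without the liver and muscle libraries it was -0.26, with 4 of 31 members higher. The summed mitosis transcripts were 84.0 to 162 CPM (median 102) in CDKi and 84.8 to 169 CPM (median 138) in vehicle. Replication-dependent histone genes had 0 of 17 tested members higher in CDKi, a median of -0.11 and 0 members at a p under 0.05. These mRNAs lack polyA tails, and the labels name both a polyA molecule and a ribosomal RNA removal kit. The p53 targets had 15 of 22 members higher with a median of 0.13, and 11 of 22 higher with a median of 0.00 without the liver and muscle libraries. Gadd45g, a stress-induced growth arrest gene, had 0.682 to 1.32 CPM in CDKi and 0.296 to 0.714 CPM in vehicle, a log2 fold change of 0.87 (unadjusted p = 0.0189). The senescence-associated secretion list had a median of -0.01, with 6 of 14 tested members higher.

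**Figure D4:**
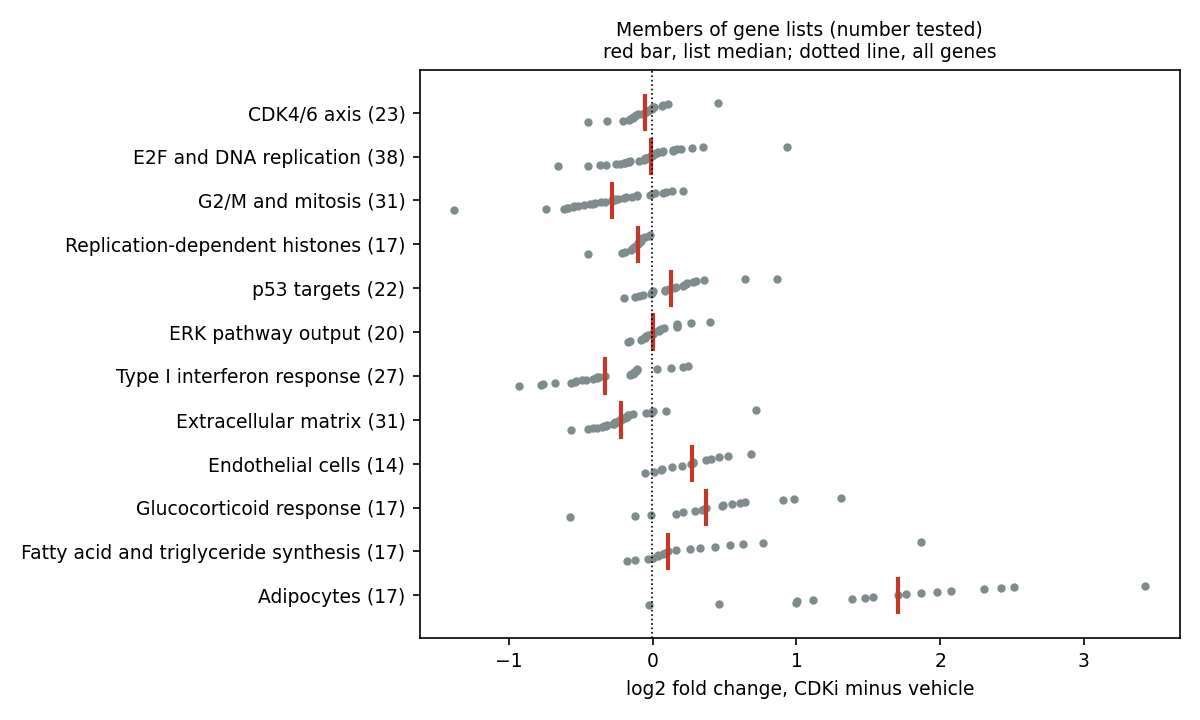
Log2 fold change of CDKi minus vehicle for every tested member of 12 gene lists, with the list median as a red bar and the median of all genes as a dotted line. The E2F and CDK4/6 lists straddle the line, mitosis and interferon genes lie mostly to its left with medians of -0.28 and -0.33, and adipocyte genes lie to its right with a median of 1.70.

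Targets of ERK signalling, which runs in parallel to CDK4/6 downstream of RAS, did not separate the groups. The ERK output list had 11 of 20 members higher, 0 at a p under 0.05, and a median of 0.00. Dusp6, the phosphatase induced by ERK, had 141 to 277 CPM (median 213) in CDKi and 182 to 259 CPM (median 214) in vehicle, and Spry4, a feedback inhibitor, had 29.5 to 77.1 CPM in CDKi and 27.2 to 92.0 CPM in vehicle. The immediate early genes had 17 of 23 members higher with a median of 0.13, which was 0.01 with 12 of 23 higher without the liver and muscle libraries. Junb, an AP-1 subunit, had 34.2 to 68.9 CPM in CDKi and 21.2 to 41.3 CPM in vehicle (log2 fold change 0.57, unadjusted p = 0.0154).

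Interferon-stimulated genes lay on the lower side in CDKi. Of 27 members 4 were higher and 23 lower, 2 at an unadjusted p under 0.05, and the median was -0.33. Isg15 had 2.04 to 6.07 CPM (median 4.01) in CDKi and 2.75 to 16.1 CPM (median 6.36) in vehicle, a log2 fold change of -0.93 ± 0.35 (SE; edgeR adjusted p = 1). The groups overlapped, and the value was -0.54 without vehicle 5. Summed interferon transcripts were 660 to 754 CPM in CDKi and 701 to 861 CPM in vehicle, apart from vehicle 5, which held 1216 CPM. Without vehicle 5 the median was -0.08 with 9 of 27 members higher. MHC class I presentation had a median of -0.16 with 2 of 13 members higher, and class II also -0.16 with 2 of 11 higher. Ptpn2, a protein tyrosine phosphatase, had 20.6 to 27.2 CPM in CDKi and 24.4 to 31.1 CPM in vehicle (log2 fold change -0.32, edgeR adjusted p = 1).

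Among genes lower in CDKi, Ptgds had the smallest p. It encodes prostaglandin D2 synthase, which is abundant in the coverings of the brain, the leptomeninges. It had 3.53, 7.64, 1.91, 2.38, 0.752 and 2.14 CPM in CDKi 1 to 6, against 2.58, 61.8, 38.4, 8.68, 16.4 and 28.4 CPM in vehicle 1 to 6. Vehicle 1 lay among the CDKi libraries and the other 5 vehicle libraries lay above all of CDKi. The log2 fold change was -3.09 ± 0.81 (SE; edgeR adjusted p = 1), and -2.69 without the liver and muscle libraries. A list of 16 leptomeningeal genes, Ptgds among them, was added after its values were seen. It had 4 of 14 tested members higher and a median of -0.30. Ranbp3l (-2.14) and Slc22a8 (-1.71) were low with Ptgds, while Igfbp2 (1.61) and Slc6a13 (0.92) were not. Summed leptomeningeal transcripts were 77.2 to 133 CPM in CDKi and 87.5 to 176 CPM in vehicle. These sums include Ptgds itself, so they are not separate from its difference. The part of the other leptomeningeal transcripts in the Ptgds difference was not tested.

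The 4 genes lower in every CDKi library than in every vehicle library were Mob3a, Gna13, Zbed4 and Lrrd1. Mob3a, of the MOB kinase activator family, had 25.3 to 33.7 CPM in CDKi and 34.3 to 41.3 CPM in vehicle, a log2 fold change of -0.28 ± 0.09 (SE; edgeR adjusted p = 1). Gna13, a G protein alpha subunit, had 151 to 171 CPM in CDKi and 173 to 198 CPM in vehicle, a log2 fold change of -0.15 ± 0.06. Zbed4 stood at -0.21 and Lrrd1 at -0.81, which was -0.54 without vehicle 3. Further down the ranking, Plekhg1, a guanine nucleotide exchange factor, had 81.3 to 131 CPM in CDKi and 111 to 167 CPM in vehicle (log2 fold change -0.44). Cklf, a chemokine-like factor, had 3.08 to 5.35 CPM in CDKi and 4.67 to 8.22 CPM in vehicle (-0.60). Hspa1a, an inducible HSP70 gene, had 3.14 to 7.27 CPM in CDKi and 4.99 to 43.2 CPM in vehicle (-1.34, or -0.48 without vehicle 5). It shares nearly identical sequence with Hspa1b (-0.85), so reads may have been split between them. The heat shock list had 2 of 15 members higher and a median of -0.13, against 9 of 15 higher and 0.05 without the liver and muscle libraries.

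Transcripts of the nerve's own cell types had list medians between -0.22 and 0.27. Myelin genes had 5 of 21 members higher and a median of -0.05, and 0 had a p under 0.05. Without the liver and muscle libraries 1 of 21 was higher and the myelin median was -0.17. Genes of non-myelinating and repair Schwann cells had a median of -0.02. The adhesion molecule gene L1cam stood at -0.30 (edgeR unadjusted p = 0.0432) and Aldh1l1, a folate enzyme, at 1.57 (edgeR unadjusted p = 0.00317), and they stood at -0.12 and 0.59 without the liver and muscle libraries. Extracellular matrix genes had 3 of 31 members higher and a median of -0.22, and 4 of 31 with a median of -0.33 without the liver and muscle libraries. Elastin (Eln, 0.71, edgeR unadjusted p = 0.0267) was the member with a p under 0.05 and stood at 0.37 without the liver and muscle libraries, and Postn, the matrix protein periostin, had 166 to 1134 CPM in CDKi and 310 to 1573 CPM in vehicle. Endothelial genes had 13 of 14 members higher, a median of 0.27 and 0 at a p under 0.05, and 8 of 14 with a median of 0.04 without the liver and muscle libraries. Nerve fibroblast genes had a median of -0.09 and perineurial genes of 0.06, and these were -0.20 and -0.06 without the liver and muscle libraries.

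Immune lists gave medians between -0.23 and 0.08. Macrophage genes had 4 of 17 members higher and a median of -0.14, which was -0.46 with 1 of 17 higher without the liver and muscle libraries. CDKi 3 had the most macrophage transcripts, 1078 CPM against 468 to 655 CPM in the other CDKi libraries and 583 to 764 CPM in vehicle. T and NK cell genes had 0 of 5 tested members higher, and 17 of the 22 on that list were not tested or not in the table. Bank1, an adaptor of the B cell receptor, had 1.93 to 4.02 CPM in CDKi and 3.79 to 6.61 CPM in vehicle (log2 fold change -0.76, unadjusted p = 0.00535, and -0.50 without the liver and muscle libraries). Of the red cell markers, the globins Hba-a1 and Hbb-bs were at 0 in all 24 libraries. Alas2, an enzyme of red cell haem synthesis, had 0.713 to 9.14 CPM in CDKi and 0.813 to 2.91 CPM in vehicle. Why the globins had no counts was not tested, so their zeros do not measure the blood in these samples.

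Glucocorticoid-responsive genes had 14 of 17 members higher in CDKi and a median of 0.37. Fkbp5, a chaperone of the glucocorticoid receptor that the hormone induces, had 38.0 to 241 CPM (median 163) in CDKi and 24.4 to 110 CPM (median 49.2) in vehicle. The groups overlapped, and the log2 fold change was 1.31 ± 0.43 (SE; edgeR adjusted p = 1). The number series of the titles divided this list: its median was 1.05 within the 4000s and -0.10 within the 5000s, where 5 of 17 members were higher, and it was 0.14 without the liver and muscle libraries. Circadian clock genes had a median of 0.15, with Per2 (0.72) higher and Npas2 (-0.98) and Arntl (-0.86), which peak at the opposite time of day, lower. Times of collection are not stated in the labels. Ribosomal protein genes had 26 of 28 members higher with a median of 0.10, and 5 of 28 higher with a median of -0.06 without the liver and muscle libraries.

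The same drug was also added to LY3214996, and that pair of groups shares no library with CDKi and vehicle. The edgeR test called 0 genes in combination against ERKi (0%) and 1437 genes had an unadjusted p under 0.05 (9.34%), 881 higher (5.73%) and 556 lower (3.61%). Across 15385 genes the log2 fold changes of the 2 comparisons had a Pearson correlation of -0.30, which is across genes and not across replicates, and -0.07 without CDKi 1, 3 and 5 and ERKi 3. Of the 480 genes with a p under 0.05 in CDKi against vehicle, 50 also had one in combination against ERKi with the same sign and 51 with the opposite sign. Among the 140 lower in CDKi these counts were 18 and 0, and among the 340 higher they were 32 and 51. Without CDKi 1, 3 and 5 and ERKi 3 the counts were 20 with the same sign and 7 with the opposite sign, of 239. The 18 include Ptpn2 (-0.32 and -0.24), Cklf (-0.60 and -0.54), Bank1 (-0.76 and -1.07) and Kl, which encodes the FGF co-receptor klotho (-0.93 and -0.96), with CDKi against vehicle given first. The 32 include Fkbp5 (1.31 and 1.73), Per2 (0.72 and 1.09), Tha1 (0.69 and 0.60), Lrg1 (2.04 and 1.26) and Slc2a1, the glucose transporter GLUT1 (0.53 and 0.68, the first being 0.24 without the liver and muscle libraries).

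**Figure D5:**
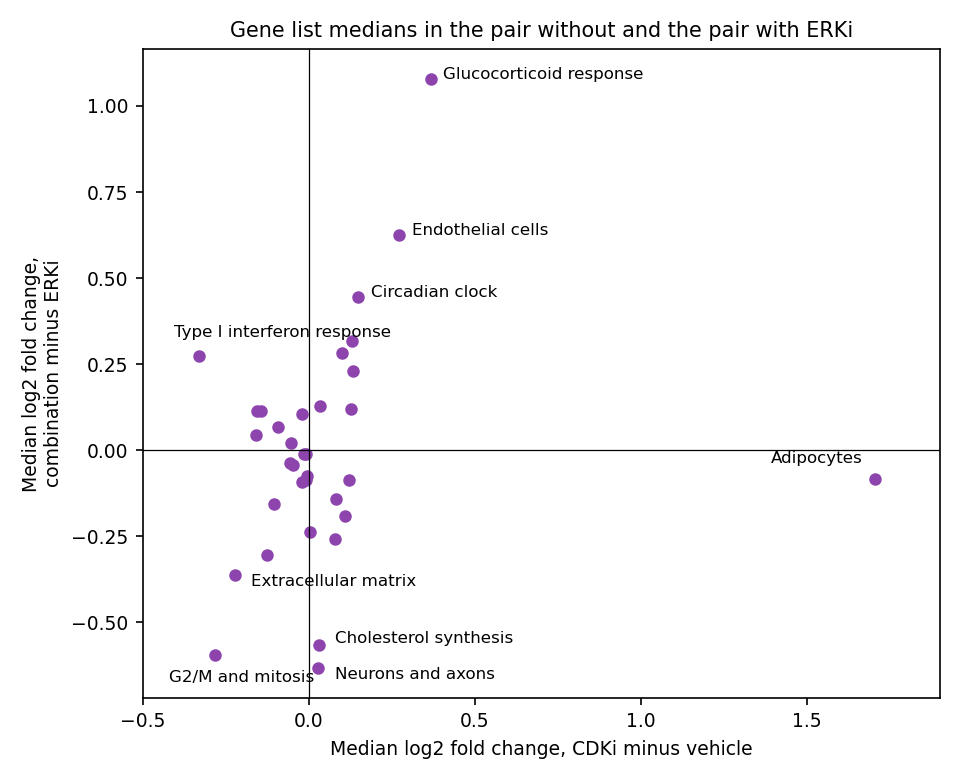
Median log2 fold change of each of 34 gene lists with at least 10 tested members in CDKi minus vehicle (x axis) and combination minus ERKi (y axis), without the skeletal muscle and leptomeningeal lists. Adipocyte genes stand at 1.70 on the x axis and -0.08 on the y axis, glucocorticoid genes at 0.37 and 1.08, and mitosis genes at -0.28 and -0.60.

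Adipocyte genes had a median near 0 in that pair. The median of the 17 genes was -0.08 in combination against ERKi, with 5 higher. Dgat2 averaged 11.9 ± 2.49 CPM in the combination and 13.2 ± 4.19 CPM in ERKi, against 17.8 ± 1.79 CPM in CDKi and 6.11 ± 2.98 CPM in vehicle (mean ± SD, n = 6 each). The mean log2 CPM of the adipocyte list was 3.68 ± 0.59 in CDKi, 3.14 ± 0.43 in the combination, 3.02 ± 0.92 in ERKi and 1.92 ± 0.88 in vehicle (SD, n = 6 each). The test of the difference between the 2 comparisons (interaction) called 0 of 15385 genes (568 at an unadjusted p under 0.05, 3.69%). Its log2 value was -1.69 ± 0.36 (SE) for Dgat2, -2.39 ± 0.49 for Thrsp and -3.25 ± 0.58 for Cdo1, with edgeR adjusted p of 0.222, 0.222 and 0.160. Without the liver and muscle libraries it was -1.68 ± 0.43 for Dgat2, -2.55 ± 0.58 for Thrsp and -1.85 ± 0.38 for Cdo1, each at an edgeR adjusted p of 0.983, and the adipocyte median in combination against ERKi was -0.18.

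Mitosis genes lay on the lower side in both pairs. In combination against ERKi 3 of 31 were higher, 9 of the lower ones had an unadjusted p under 0.05, and the median was -0.60. Mki67 averaged 4.29 ± 3.45 CPM in the combination and 12.1 ± 4.41 CPM in ERKi (mean ± SD, n = 6 each), a log2 fold change of -1.52 ± 0.53 (SE; edgeR adjusted p = 0.450). The interaction for Mki67 was -0.96 ± 0.73 (SE; edgeR adjusted p = 0.988), so the size of its difference in the 2 pairs was not told apart. The interferon list had a median of 0.27 in combination against ERKi, with 23 of 27 members higher, opposite to its -0.33 in CDKi against vehicle. Extracellular matrix genes also lay on the lower side in both pairs. In combination against ERKi 9 of 31 were higher, 6 of the lower ones had an unadjusted p under 0.05, and the median was -0.36. Without the liver and muscle libraries 5 of 31 were higher in that pair and the median was -0.52.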

How the data were processed

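Whole sciatic nerve RNA of 24 samples was sequenced. Groups were read from the treatment label, and the numbers 1 to 6 only name libraries in accession order. The deposited table holds raw counts from the authors, unscaled, with a gene per row and a sample per column. Per the submitters' processing notes, FastQC, STAR, DESeq2 and the genome build mm10 were used. Not given in the sources used here are the counting program, its annotation and strandedness, and all versions, so reads of overlapping or antisense genes cannot be told apart. Per the labels' protocols, ribosomal RNA was removed with a kit, while the molecule label reads polyA RNA.

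Genes were kept by filterByExpr (minimum count 10, minimum total 15) and scaled by TMM in edgeR 4.0.16 (R 4.3.3). A robust quasi-likelihood model with a mean per group was fitted to all 24 libraries, with 20 residual degrees of freedom and a common dispersion of 0.129. Two-sided p-values were adjusted by Benjamini-Hochberg over 15385 genes, threshold 0.05. Standard errors are the log2 fold change over the square root of F, and log2 CPM used a prior count of 2. The test was also tried on counts simulated around a single mean profile. Those counts hold no libraries set apart by liver, muscle or neuronal transcripts, so that trial does not check the calls in these data. A count of 3, the floor of detection, was 0.152 to 0.198 CPM in CDKi and 0.0709 to 0.556 CPM in vehicle. The floor covers counting error only, while confidence intervals come from the model and include the spread between libraries.

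Described were the 44 gene lists, 1 list added later, 18 fixed genes, the 10 genes of smallest p in each direction (mean log2 CPM of at least 1, at least 5 libraries on that side of the vehicle median), the 6 of smallest p per direction whose groups did not overlap, and the leading members of each list. Sex-linked, predicted and immune receptor genes were left out of the ranks. Genes outside these rules are named as list members or after their values were seen. The members, lists and tests were chosen with earlier results of these data known. Of all symbols 23204 (95.0%) matched RefSeq (GRCm38.p6), which shares the coordinates of mm10. Over 30 library pairs of the same group, chi-square divided by its degrees of freedom was at least 23.2, above sampling noise. Alternatives were DESeq2 1.42.0, limma-voom 3.58.1, other scalings and filters, added covariates and libraries left out.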

Additional observations from a re-analysis of the deposited data

Results flagged for a closer look

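Among 260 sets of 6 libraries examined (the list means and the named genes, in CDKi and in vehicle), 19 had 1 library far from the other 5 by Dixon's criterion at the 95% level, and chance alone gives about 1 in 20. All values are log2 CPM, of a gene or as the mean of a list, and none of the causes was tested.

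In CDKi, library 3 was high in replication-dependent histones (3.54, next 3.001), macrophage genes (5.10, next 4.24) and dendritic cell genes (2.33, next 1.62). CDKi 5 was low in genes of non-myelinating and repair Schwann cells (4.74, next 5.49) and in Ccne2 (0.69, next 1.67), and high in Des, the muscle filament desmin (4.74, next 1.78). CDKi 4 was high in the transporter gene Slc22a23 (6.42, next 6.11) and CDKi 1 low in the spindle kinase gene Ttk (0.19, next 1.43).

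In vehicle, library 1 was high in ERK pathway output (5.43, next 5.09), pericyte and smooth muscle genes (4.25, next 3.83) and dendritic cell genes (2.36, next 1.70). It was low in the integrated stress response (3.68, next 3.97) and in Ltbp2, a TGF-beta binding protein of the matrix (0.53, next 3.04). Vehicle 3, the shallowest library, was high in nerve fibroblast genes (6.49, next 6.05) and mast cell genes (3.295, next 1.95) and low in the adhesion gene L1cam (8.04, next 8.70). Vehicle 4 was high in Aldh1l1 (4.35, next 3.38) and low in the monocyte receptor gene Ccr2 (4.35, next 5.26), and vehicle 2 was low in the MHC class II chaperone gene H2-DMb1 (4.41, next 4.93).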

How the results depend on the processing

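The count of 0 genes called in CDKi against vehicle became 58 with DESeq2, 30 with DESeq2 on the genes of the count filter, and 1 (Dgat2) each with no count filter, a neuron list covariate and titles in the 5000s alone. Leaving out single libraries gave 0 to 3. Combination against ERKi had 0 genes called by edgeR, 71 by DESeq2 (31 higher, 40 lower) and 6 by limma-voom. The interaction had 0 called by edgeR and 155 by DESeq2, with 0 higher and 155 lower. Liver transcripts stood high in CDKi 1, CDKi 3 and ERKi 3, and the 6 tested liver genes had an interaction median of -14.2. The part of these libraries in the 155 calls was not tested. Mcm10 reversed from 0.93 to -0.68 within titles in the 5000s. Of 3642 alternative values of the 87 named genes, 3605 kept their side of the threshold, 36 newly passed it and 1 reversed (changed sign with both values above their standard errors), and of 1634 list medians 22 moved beyond the spread between libraries. DESeq2 on the genes of the count filter and the fits without the liver and muscle libraries were chosen after seeing the data. No paired analysis was possible because the titles are unique numbers and the library numbers follow accession order only. Differences in genes under about 0.5 CPM were not detectable in vehicle 3, whose 3-count floor was 0.556 CPM.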
